A study of Mus musculus with 8 samples.

Results

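Interferon-inducible and MHC class I genes were followed in GFP-positive cells of the embryonic mouse cortex and lung. The 9 genes were the membrane proteins Ifitm1, Ifitm2 and Ifitm3, the virion tether Bst2, the transcription factor Irf1, the ubiquitin-like protein Isg15, the class I light chain B2m and the class I heavy chains H2-K1 and H2-D1. They were chosen by name, each gene was represented by the probe set that named it alone and had the highest mean over the 8 arrays, and cortex was compared with lung. By this rule 8 of the 9 genes were measured, among 18193 genes tested, since the probe set for Isg15 also named the gene Gm9706. The embryos were E13.5 offspring of homozygous Tie2-GFP transgenic mice (a Jackson laboratory strain), and both tissues came from such embryos. In this line the promoter of Tek (Tie2), a receptor of endothelial cells, drives green fluorescent protein, and the GFP-positive cells were taken by flow sorting after collagenase treatment. The cortex was dissected free of meninges and choroid plexus. There were 4 cortex arrays and 4 lung arrays, numbered 72, 22, 19 and 18 in each tissue, and each held the pooled cells of 1 litter of 10 to 13 embryos.

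Interferons are cytokines that put cells into a state of resistance to viruses. Type I interferons bind the receptor chains Ifnar1 and Ifnar2, whose kinases Jak1 and Tyk2 activate Stat2, which together with Irf9 is part of a factor that binds the interferon-stimulated response element (ISRE). Interferon gamma binds Ifngr1 and Ifngr2 and acts through Jak1 and Jak2 on genes that carry the gamma-activated site (GAS). Class I molecules, made of a heavy chain and B2m, show peptides from inside the cell to CD8 T cells. Vascular endothelium is known to carry class I molecules, while healthy neurons are known for low levels of them.

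The description field of the 4 arrays numbered 19 and 18 gave the opposite tissue to their title, source name and tissue tag. Neural marker levels followed the titles, since the mean of 16 such markers lay between 10.85 and 11.43 on the arrays titled cortex and between 6.03 and 6.45 on those titled lung (log2 value). Markers of the labelled cell type were present in both tissues, with all 24 endothelial markers above the median gene. Their mean lay at 9.84, 11.16, 11.30 and 9.48 on cortex arrays 72, 22, 19 and 18, against 11.61, 11.66, 11.76 and 11.19 on the lung arrays in the same order of numbers. All 16 neural markers were called higher in cortex. Of 18 macrophage and leukocyte markers 6 were called higher in cortex and 0 in lung, with means of 5.91 to 8.70 in cortex and 5.56 to 6.44 in lung. The microglial receptor Cx3cr1 lay at 5.73 to 8.76 in cortex and 5.03 to 5.83 in lung, and the leukocyte phosphatase Ptprc at 4.72 to 7.16 and 4.08 to 6.20. Of 12 mesenchyme markers 9 were called higher in lung, with means of 6.08 to 6.45 in cortex and 7.54 to 9.76 in lung. Fewer cells of a type and less RNA per cell cannot be told apart in such sorted pools, and the part of these other cells in the results below was not tested.

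Interferon acts on its target genes through elements in their promoters, so the promoters of the 4 genes called below and of the class I genes are shown. All 9 genes matched a RefSeq promoter window in the build GRCm38.p6, from 250 bases before to 50 bases after a transcript start. Each window was searched on both strands for a core of the ISRE, GAAA, any 2 bases, GAAA, and for a core of the GAS, TTC, any 3 bases, GAA, which reads the same on both strands. The stretches run 5′ to 3′ in the gene's direction, from 150 bases before the start to 30 bases after it, with matches of either core in capitals. Irf1 is on the plus strand (chr11:53769864-53770043), Ifitm2 on the minus strand (chr7:140955932-140956111), Ifitm3 on the minus strand (chr7:141010715-141010894), Bst2 on the minus strand (chr8:71537443-71537622) and B2m on the plus strand (chr2:122147537-122147716).
Irf1: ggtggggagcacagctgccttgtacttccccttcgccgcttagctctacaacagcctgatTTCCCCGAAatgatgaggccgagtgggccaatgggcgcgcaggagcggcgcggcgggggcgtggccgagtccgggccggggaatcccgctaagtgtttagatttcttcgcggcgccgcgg
Ifitm2: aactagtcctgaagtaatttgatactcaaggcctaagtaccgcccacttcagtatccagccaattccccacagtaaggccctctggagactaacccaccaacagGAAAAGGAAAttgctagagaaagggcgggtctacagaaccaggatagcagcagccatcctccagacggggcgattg
Ifitm3: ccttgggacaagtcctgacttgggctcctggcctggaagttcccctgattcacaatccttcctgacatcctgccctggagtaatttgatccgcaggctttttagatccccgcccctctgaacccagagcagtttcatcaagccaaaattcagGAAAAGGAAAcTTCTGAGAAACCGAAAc
Bst2: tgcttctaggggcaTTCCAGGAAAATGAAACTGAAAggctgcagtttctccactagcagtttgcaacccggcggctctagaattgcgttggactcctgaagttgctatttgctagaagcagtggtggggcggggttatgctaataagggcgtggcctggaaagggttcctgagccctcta
B2m: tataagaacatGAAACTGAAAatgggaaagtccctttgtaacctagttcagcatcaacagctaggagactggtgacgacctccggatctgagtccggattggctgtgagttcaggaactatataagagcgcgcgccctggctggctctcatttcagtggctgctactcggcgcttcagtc

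The ISRE core was present in the windows of 5 of the 9 genes (Ifitm2, Ifitm3, Bst2, B2m and Isg15), against 3.44% of all 32851 windows. Ifitm2 held 1 match, from base -46 to -37, counted back from the transcript start. In Ifitm3 the matches lay just after the start, from base 3 to 12 and from 20 to 29. Bst2 held a pair that overlap, from -130 to -121 and from -124 to -115, Isg15 held 3 overlapping matches, and B2m held 1 from -139 to -130. The GAS core was present for 3 genes, Irf1 (-90 to -82), Bst2 (-136 to -128, overlapping its first ISRE core) and Ifitm3 (14 to 22, overlapping its second), against 8.3% of all windows. Ifitm1, H2-K1 and H2-D1 held neither set of letters in these windows. The 1 window of Ifitm1 (stretch chr7:140967926-140968105) lies inside the gene, which begins at chr7:140967429. That of Ifitm2 also lies inside its gene, which on the minus strand begins at chr7:140959686. The sequence before these outer ends was not searched. The search took exact letters only, so it cannot show that a promoter lacks an element that departs from these cores.

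H2-K1 and H2-D1 are members of 1 gene family. Their promoter windows from 250 bases before to 30 bases after the start, H2-K1 on the minus strand (chr17:34000318-34000597) and H2-D1 on the plus strand (chr17:35262844-35263123), share a run of 47 bases, in capitals. It lies from -141 to -95 in H2-K1 and from -201 to -155 in H2-D1. H2-K1 had 2 promoter windows, of which 1 is shown, and its stretch lies inside the gene, which ends at chr17:34000619. The positions count from the start used, so they cannot show that the run is placed differently in the 2 genes.
H2-K1: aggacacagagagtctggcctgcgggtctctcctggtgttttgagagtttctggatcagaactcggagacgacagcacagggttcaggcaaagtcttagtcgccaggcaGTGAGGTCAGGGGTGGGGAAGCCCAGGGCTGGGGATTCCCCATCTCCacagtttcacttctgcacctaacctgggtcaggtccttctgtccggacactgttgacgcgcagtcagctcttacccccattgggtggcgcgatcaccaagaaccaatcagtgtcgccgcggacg
H2-D1: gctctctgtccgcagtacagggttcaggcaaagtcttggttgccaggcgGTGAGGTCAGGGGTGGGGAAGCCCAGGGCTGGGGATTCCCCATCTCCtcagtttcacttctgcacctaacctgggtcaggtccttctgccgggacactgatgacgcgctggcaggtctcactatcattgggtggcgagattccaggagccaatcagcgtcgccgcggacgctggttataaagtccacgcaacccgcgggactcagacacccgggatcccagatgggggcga

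Of the 8 measured genes, 4 fell in cortex by limma, with p-values adjusted over all genes by Benjamini-Hochberg and a threshold of 0.05: Irf1, Ifitm2, Ifitm3 and Bst2. Over all genes, 18.1% were called, 7.71% with the lower value in cortex and 10.4% with the higher. None of the 8 was called higher in cortex, and the other 4 (Ifitm1, B2m, H2-K1 and H2-D1) did not pass in either direction. All 8 differences lay below 0, with a median of -1.90 log2 units, against -0.09 over all genes. For 7 of the 8, on the probe set chosen, the cortex arrays all lay below the lung arrays. This held for 2189 of all 18193 genes, and 24.5% of all genes had arrays that did not overlap in either direction.

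**Figure D1:**
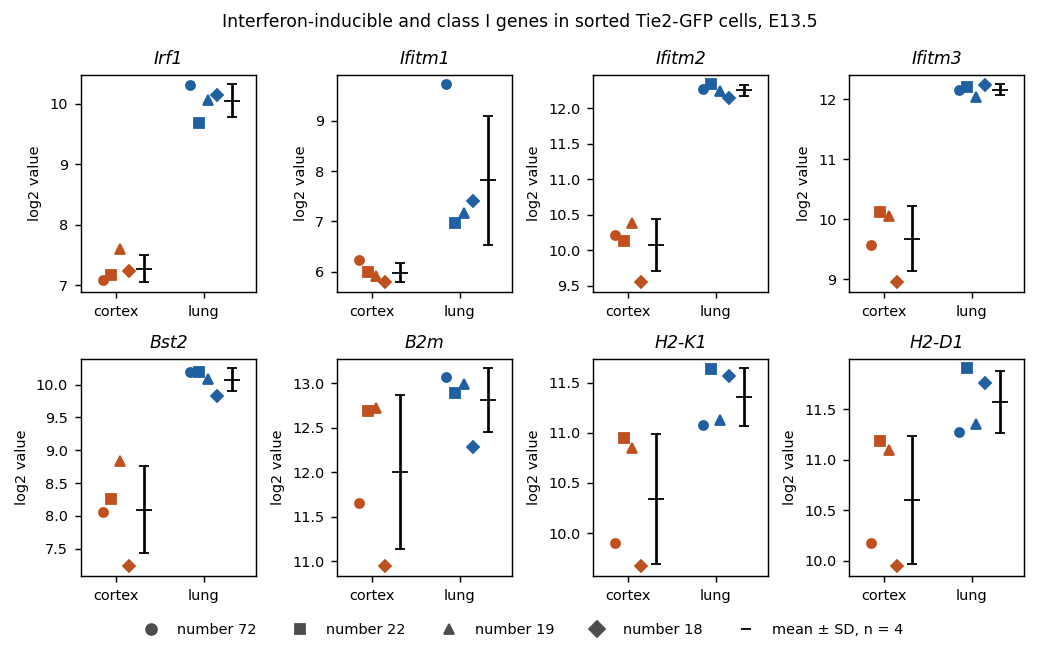
Log2 value (vertical axis, a separate range for each gene) of the 8 measured genes on the 4 cortex arrays and the 4 lung arrays, with a symbol for each sample number and the mean ± SD beside them. Cortex and lung arrays are apart for 7 genes and overlap for B2m, where lung array 18 (12.29) lies below cortex arrays 22 (12.69) and 19 (12.72).

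Irf1 (chr11:53770014-53778374), a transcription factor that interferons induce and that switches on class I and other defence genes, had the largest difference of the 8. Its log2 values were 7.09, 7.17, 7.59 and 7.24 on cortex arrays 72, 22, 19 and 18, against 10.31, 9.68, 10.06 and 10.15 on the lung arrays. The tissues were well apart, and within each the arrays lay within 1 log2 unit. The means were 7.27 ± 0.22 in cortex and 10.05 ± 0.27 in lung (SD, n = 4 each), a difference of -2.78 ± 0.18 (SE), or 6.86-fold lower in cortex (adjusted p = 2.48e-05).

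The Ifitm genes encode small membrane proteins that hinder the fusion of virus and cell membranes, and the 3 measured here lie side by side on chromosome 7 (Ifitm2 at chr7:140954837-140959686, Ifitm1 at chr7:140967429-140969827, Ifitm3 at chr7:141009590-141010744). Ifitm3 lay at 9.58, 10.12, 10.05 and 8.95 in cortex, against 12.15, 12.21, 12.03 and 12.23 in lung. Ifitm2 lay at 10.22, 10.13, 10.38 and 9.55 in cortex, against 12.27, 12.33, 12.24 and 12.15 in lung. For both, the lung arrays were nearly level while the cortex arrays spread, with cortex 18 the lowest. Ifitm3 differed by -2.48 ± 0.25, 5.58-fold lower in cortex (adjusted p = 0.000258), with means of 9.67 ± 0.54 in cortex and 12.16 ± 0.09 in lung. Ifitm2 differed by -2.18 ± 0.19, 4.52-fold lower in cortex (adjusted p = 0.000105), with means of 10.07 ± 0.36 in cortex and 12.25 ± 0.08 in lung.

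Ifitm1 behaved less evenly than its neighbours. It lay at 6.23, 5.99, 5.92 and 5.79 in cortex, against 9.72, 6.96, 7.16 and 7.41 in lung. Lung array 72 stood more than 2 log2 units above the other lung arrays, and the tissues did not overlap. The difference of -1.83 ± 0.55 did not pass (adjusted p = 0.0532), with means of 5.98 ± 0.19 in cortex and 7.81 ± 1.29 in lung. Without lung array 72 it was smaller and passed, at -1.19 (adjusted p = 0.00326), and it also passed without lung array 22, at -2.12 (adjusted p = 0.0493). Lung array 72 also had the highest means of the arrays for mesenchyme markers (9.76), mural cell markers (8.16) and lung epithelial markers (8.25), and their part in the Ifitm1 value was not tested.

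Bst2 (chr8:71534255-71537472), or tetherin, holds budding enveloped virions at the cell surface. It lay at 8.06, 8.26, 8.84 and 7.23 in cortex, against 10.19, 10.19, 10.08 and 9.83 in lung. Every cortex array was below every lung array, by about 1 log2 unit at the closest pair, cortex 19 and lung 18. Bst2 differed by -1.98 ± 0.31, 3.94-fold lower in cortex (adjusted p = 0.00261), with means of 8.10 ± 0.67 in cortex and 10.07 ± 0.17 in lung. Isg15 (chr4:156199424-156200818), a ubiquitin-like protein joined to other proteins after interferon, had no value of its own. The probe set that named Isg15 and Gm9706 together read 6.77, 6.95, 6.97 and 6.78 in cortex, against 7.06, 8.02, 7.02 and 6.82 in lung, with overlap and without passing (-0.36 ± 0.25, adjusted p = 0.419 over all probe sets).

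B2m (chr2:122147687-122153082), the light chain shared by all class I molecules, lay at 11.65, 12.69, 12.72 and 10.94 in cortex, against 13.07, 12.89, 12.99 and 12.29 in lung. Cortex arrays 22 and 19 reached into the lung range, and arrays 72 and 18 lay below it. The difference of -0.81 did not pass (95% confidence interval -1.73 to 0.11, adjusted p = 0.215). The other probe set of B2m gave -0.96 (adjusted p = 0.255 over all probe sets).

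The classical heavy chains H2-K1 (chr17:33996012-34000619) and H2-D1 (chr17:35263094-35267497) ordered the 8 arrays identically. H2-K1 lay at 9.91, 10.94, 10.85 and 9.67 in cortex, against 11.08, 11.63, 11.12 and 11.57 in lung. H2-D1 lay at 10.18, 11.18, 11.09 and 9.95 in cortex, against 11.27, 11.90, 11.35 and 11.76 in lung. For both, cortex arrays 22 and 19 came close to the lowest lung arrays, and cortex arrays 72 and 18 lay about 1 log2 unit lower. The differences of -1.01 ± 0.32 for H2-K1 (adjusted p = 0.0593) and -0.97 ± 0.31 for H2-D1 (adjusted p = 0.0657) did not pass, and their 95% confidence intervals ran from -1.73 to -0.29 and from -1.68 to -0.26. Without cortex array 22 both passed (-1.21, adjusted p = 0.037 and -1.16, adjusted p = 0.0425), and without cortex array 19 H2-K1 passed (-1.18, adjusted p = 0.0457). These were the cortex arrays with the higher endothelial means (11.16 and 11.30). With any other single array left out neither gene passed, and without cortex array 18 the differences were -0.78 and -0.75.

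The heavy chain probe sets cannot be tied firmly to 1 gene each. All 4 probe sets that named H2-K1 alone, and 7 of the 9 that named H2-D1 alone, were of the _x_at type, which in this array's naming marks probes that can also bind similar sequences, and the H2 genes differ between mouse strains. All 4 H2-K1 probe sets had a negative difference, from -1.01 to -0.21, and 0 passed over all probe sets. All 9 H2-D1 probe sets had a negative difference, from -0.98 to -0.08, and 1 passed (-0.58, adjusted p = 0.0298). The 1 that passed read 5.62 ± 0.13 in cortex and 6.20 ± 0.16 in lung, below the median gene (7.70). The H2-D1 probe set with the difference nearest to 0 read 4.42 ± 0.18 in cortex and 4.49 ± 0.19 in lung.

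**Figure D2:**
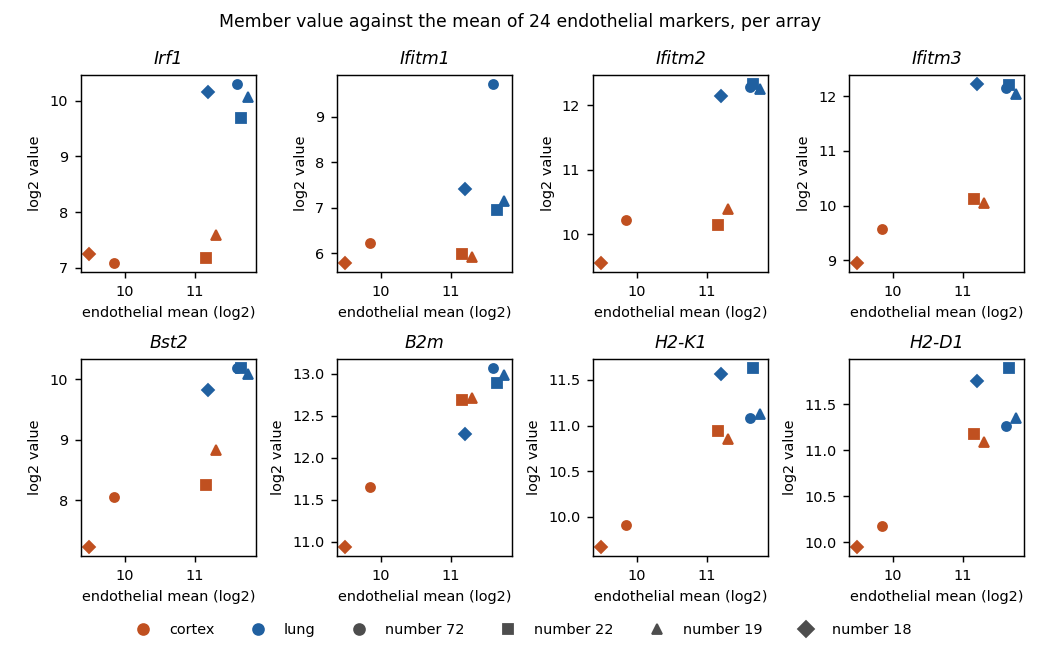
Log2 value of each measured gene (vertical axis) against the mean log2 value of 24 endothelial markers (horizontal axis) for the 4 cortex and 4 lung arrays. Cortex arrays 22 and 19 lie near lung array 18 in endothelial mean (11.16 and 11.30, against 11.19). On these arrays B2m alone lies higher in cortex. The other genes lie lower in cortex, furthest for Irf1, Ifitm3 and Ifitm2.

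The genes differed in how they stood to the endothelial marker mean of the arrays. Of the 24 markers in that mean, 4 were themselves called higher in lung, and 23 had a difference below 0. Their median difference was -1.07, beside -0.81 for B2m, -1.01 for H2-K1 and -0.97 for H2-D1. The part of endothelial content in the values below was not tested. Cortex array 18, with the lowest endothelial mean (9.48), was the lowest cortex array for 7 of the 8 genes, and cortex 72 was the lowest for Irf1. Cortex arrays 22 and 19 and lung array 18 had endothelial means of 11.16, 11.30 and 11.19. On these arrays, picked after their values were seen, Irf1 read 7.17 and 7.59 in cortex, against 10.15 in lung, and Ifitm3 10.12 and 10.05, against 12.23. The gap was narrower for Bst2 (8.26 and 8.84, against 9.83) and for H2-K1 (10.94 and 10.85, against 11.57), and B2m ran the other way (12.69 and 12.72, against 12.29). Without cortex arrays 72 and 18, the calls of Irf1 (-2.67, adjusted p = 0.00126), Ifitm3 (-2.07, 0.000736), Ifitm2 (-1.99, 0.00104) and Bst2 (-1.52, 0.00924) stood.

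With the arrays brought to an equal endothelial mean, the median of all genes moved to 1.02 log2 units, since the shift adds the same amount to every gene's difference, and each value is read against that median. Irf1 alone of the 8 was then called, at -1.67 (adjusted p = 0.0216). Over all 18193 genes, 157 were called towards lung and 4122 towards cortex on this scale, against 1403 and 1888 on the deposited values. Ifitm3 (-1.37, adjusted p = 0.0636), Ifitm2 (-1.07, 0.135) and Bst2 (-0.87, 0.193) kept their sign without passing, and their arrays did not overlap between the tissues. B2m (0.30), H2-K1 (0.10) and H2-D1 (0.14) then lay above 0 by the added amount, still below the median gene, with overlapping arrays. On this scale limma gave all genes the same SE, 0.57, so a call there depends on the size of the difference alone.

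**Figure D3:**
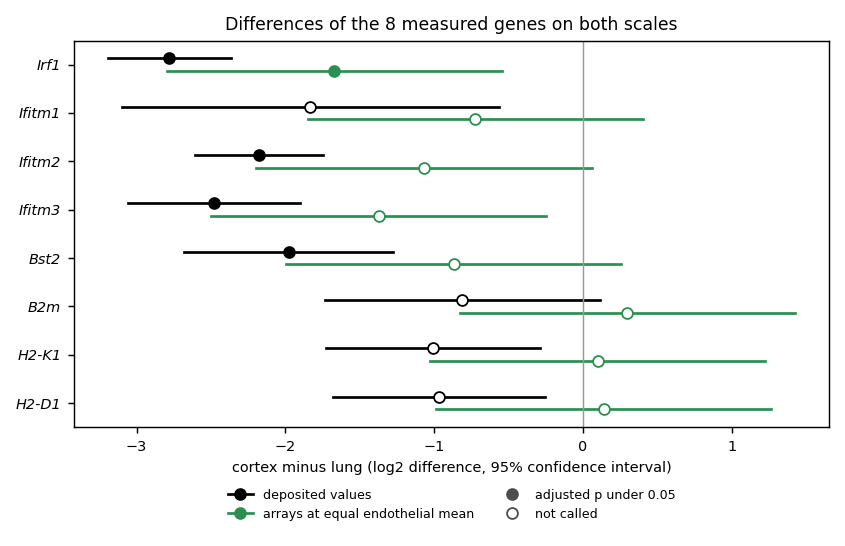
Cortex minus lung in log2 units with its 95% confidence interval for the 8 measured genes, on the deposited values and with the arrays at equal endothelial means, with filled points at an adjusted p under 0.05. On the deposited values 4 genes are called, and at equal endothelial means Irf1 alone is called and the 3 class I genes lie slightly above 0.

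Other genes of the pathway were taken from lists and showed differences in part of their members. Of 10 measured interferon genes 0 were called in limma, beside 18.1% of all genes. Their median level was 4.75, against 7.70 over all genes, and 1 of the 10 lay above the latter. Differences at such low levels are understated, so this count cannot show that the tissues were equal. The largest difference was that of Ifnz (-0.999, adjusted p = 0.434), which read 7.34 to 8.14 in cortex and 6.92 to 10.49 in lung. The receptor chains did not pass either: Ifnar1 differed by -0.39 (adjusted p = 0.25), Ifnar2 by -0.39 (0.404), Ifngr1 by -0.40 (0.452) and Ifngr2 by 0.39 (0.445). The transcription factors Stat2 (0.05, adjusted p = 0.85) and Irf9 (-0.29, 0.538) did not pass.

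Of the 22 measured receptor and signalling genes, 3 were called higher in lung and 1 higher in cortex, beside 7.71% and 10.4% of all genes, with a median of -0.30. Socs3, a feedback inhibitor of cytokine receptors, fell most in cortex. It lay at 8.05, 7.91, 8.02 and 6.78 in cortex, against 10.44, 10.37, 10.51 and 10.82 in lung, a difference of -2.85 (7.2-fold lower in cortex, adjusted p = 0.000253). Like Irf1, Socs3 kept its call at equal endothelial means, at -1.74 (adjusted p = 0.016). The kinases split, with Jak1 (-1.19, adjusted p = 0.0394) and Tyk2 (-0.84, 0.0151) lower in cortex and Jak2 higher (0.97, adjusted p = 0.00377). The Jak1 call was lost without cortex array 72, 22 or 18 or lung array 72, 22 or 19. Jak2 read 11.18 to 11.30 in cortex and 9.89 to 10.53 in lung. Without the arrays numbered 19 and 18, where the labels conflict, 1 gene of this list was called towards lung and 0 towards cortex.

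Of 54 other measured interferon-stimulated genes, 10 were called higher in lung and 0 higher in cortex, beside the 7.71% and 10.4% of all genes, with a median of -0.44. The guanylate-binding protein Gbp6 lay at 4.25 to 4.91 in cortex and 6.68 to 7.58 in lung (-2.63, 6.19-fold lower in cortex, adjusted p = 0.000105). Ifi27 (-2.16, adjusted p = 0.000367) and the antiviral enzyme Rsad2, or viperin (-2.15, adjusted p = 0.000519), were also lower in cortex. At equal endothelial means Gbp6 was still called (-1.52, adjusted p = 0.0386), and Ifi27 and Rsad2 were not. Most of the list did not pass, and the count towards lung was 5 without cortex array 72, 6 without lung array 19 or 18 and 4 without the arrays numbered 19 and 18. Of 5 measured genes of Isg15 conjugation, 2 were called higher in lung and 0 higher in cortex, beside 7.71% and 10.4% of all genes. Ube2l6 (-0.68, adjusted p = 0.402), Herc6 (-0.29, 0.435) and Usp18 (-0.09, 0.91) did not pass. The 2 called were the activating enzyme Uba7 (-1.38, adjusted p = 0.0468) and the ligase Trim25 (-1.68, adjusted p = 0.0422), which is also on the longer list. Both calls were lost without cortex array 72 or any 1 lung array, that of Trim25 also without cortex 18 and that of Uba7 also without cortex 19. Of the 4 other measured genes of the Ifitm family, Ifitm6 and Ifitm7 did not pass. Ifitm5 (-1.27, adjusted p = 0.00111) and Ifitm10 (-0.85, 0.00736) were also lower in cortex, 2 of 4 beside 7.71% of all genes. Neither call stood without the arrays numbered 19 and 18 or at equal endothelial means, where Ifitm5 lay at -0.17 and Ifitm10 at 0.26, and all 4 of these genes are among the dim genes.

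Of 18 measured genes of class I processing and loading, 2 were called higher in lung and 0 higher in cortex, beside 7.71% and 10.4% of all genes, with 16 differences below 0 and a median of -0.36. They were the immunoproteasome subunit Psmb10 (-1.13, 2.19-fold lower in cortex, adjusted p = 0.0115) and the translocon subunit Sec61a1 (-0.54, adjusted p = 0.033), and the call of Sec61a1 was lost without any 1 array other than cortex 72. The peptide transporter Tap1 (0.02, adjusted p = 0.94), its partner tapasin, Tapbp (-0.25, 0.461), and the class I activator Nlrc5 (0.32, 0.605) did not pass. Nor did the peptide-trimming enzyme Erap1 (-1.66, adjusted p = 0.0881), the immunoproteasome subunit Psmb8 (-0.88, 0.157) or the tapasin relative Tapbpl (-0.83, 0.0872), which were chosen after their values were seen. Of 14 other class I and class I-like genes, 2 were called higher in lung, beside 7.71% of all genes. They were the protein C receptor Procr, an endothelial surface protein with a class I-like fold (-1.96, adjusted p = 0.0126), and Mr1, which shows vitamin metabolites to T cells (-1.02, adjusted p = 0.00622). Of 11 class II presentation genes, 1 was called higher in cortex, beside 10.4% of all genes, the protease Ctss (2.75, adjusted p = 0.0267). Ctss read 10.67, 10.27, 10.997 and 7.49 in cortex, against 7.57, 7.17, 6.82 and 6.89 in lung, beside macrophage means of 8.34, 8.09, 8.70 and 5.91 on the same cortex arrays, and its call was lost without cortex array 72, 22 or 19 or lung array 22, 19 or 18.

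**Figure D4:**
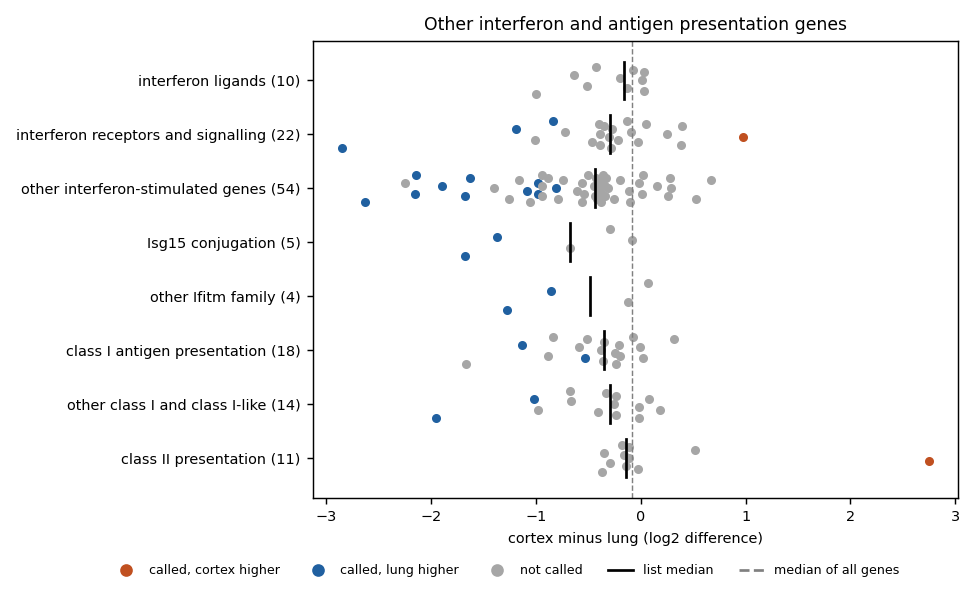
Cortex minus lung in log2 units for every measured gene of 8 lists, with the number measured in brackets, called genes in colour, the list median as a black bar and the median of all genes (-0.09) as a dashed line. Calls towards lung are spread over 6 lists, and the calls towards cortex are Jak2 and Ctss.

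The genes whose pattern over the 8 arrays was most like that of the members were named by Pearson's r, a description over arrays that share their tissue. The mean of the 3 Ifitm genes lay at 8.68, 8.75, 8.79 and 8.10 in cortex, against 11.38, 10.50, 10.48 and 10.60 in lung. It was closest to Rftn1 (0.995), Cpped1 (0.994) and Snx5 (0.993). The mean of B2m, H2-K1 and H2-D1 lay at 10.58, 11.61, 11.55 and 10.18 in cortex, against 11.81, 12.14, 11.82 and 11.87 in lung. It was closest to Dock6 (0.992), Elk3 (0.991) and Ecscr (0.990), of which Ecscr is an endothelial surface protein on the marker list.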

How the data were processed

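RNA of GFP-positive cells (15 to 30 ng) was linearly amplified and put on the Affymetrix Mouse Genome 430 2.0 array, per the labels' protocols. The authors deposited log2 values per probe set, and the submitters' processing notes name RMA and affy, with versions not given in the sources used here. RMA compresses low values, so folds there are understated, and all differences are relative to the rest of the array. The number of arrays limits the precision. The table's 8 columns were mapped by sample identifier, and no column (0) was unmapped.

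After 64 control probe sets were removed, of 45037 others 34945 named 1 gene in the platform annotation, 932 several and 9160 were unnamed here, and 34741 matched RefSeq by gene identifier. Promoter sequences are RefSeq's (GRCm38.p6). The tissue difference was fitted in R 4.3.3 by limma 3.58.1 (lmFit, then eBayes, two-sided, Benjamini-Hochberg over 18193 genes), with a call at an adjusted p under 0.05. Probe set values were adjusted over all 45037. Members and lists were chosen with earlier results of these data known. Genes named from a list were up to 3 called genes per direction with the largest difference, or the largest where none was called, every called signalling, Isg15 conjugation and class I loading gene, and receptors, Stat2, Irf9, Tap1, Tapbp and Nlrc5. Alternatives covered the sample number as a block, scaling, weights, variance prior, dim genes, probe sets and arrays left out. The numbers on the arrays are not stated to mark shared litters.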

Additional observations from a re-analysis of the deposited data

Results flagged for a closer look

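Ifitm1 on lung array 72 read 9.72, and the nearest of the other lung arrays read 7.41. The gap made up 0.836 of the range of the 4 lung arrays, above Dixon's 95% limit for 4 samples. Among 16 groups of 4 arrays, a gene in a tissue each, this was the 1 value flagged, and chance alone flags about 1 in 20.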

How the results depend on the processing

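The calls of Irf1, Ifitm2, Ifitm3 and Bst2 stood in all alternatives other than the shift to equal endothelial means, where Irf1 alone was called, and without the arrays numbered 19 and 18, chosen after the data were seen, the same 4 were called. Under that shift B2m, H2-K1 and H2-D1 reversed, to 0.30, 0.10 and 0.14, as did 8 pathway genes called towards lung, Sec61a1 (0.57), Pml (0.29), Tyk2 (0.27), Ifitm10 (0.26), Trim21 (0.13), Samhd1 (0.13), Mr1 (0.09) and Eif2ak2 (0.02). The shift adds 1 amount to every difference, and all of these stayed below the median of all genes, 1.02. The count of member genes called towards lung was 4 in the main analysis, 7 with the number as a random replicate block, with arrays centred on medians, with a trended robust prior and with the mean over probe sets, 1 at equal endothelial means, and 4 to 6 when single arrays were left out (0 to 0 towards cortex). The genes gained in these were Ifitm1, H2-K1 and H2-D1, and B2m passed in none.

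Receptor and signalling genes called towards lung were 1 at equal endothelial means, 1 without both arrays numbered 72 or 22, 1 without cortex 72 and 18, 1 without the arrays numbered 19 and 18, and 2 to 3 with single arrays left out. Towards cortex they were 3 at equal endothelial means, 0 without the arrays numbered 19 and 18, and 1 to 1 otherwise with single arrays left out. Other interferon-stimulated genes called towards lung were 1 at equal endothelial means, 16 with array weights, 6 without both arrays numbered 72, 22 or 18, 6 without cortex 72 and 18, 4 without the arrays numbered 19 and 18, and 5 to 15 with single arrays left out. Towards cortex they were 2 at equal endothelial means, 1 with array weights, 1 with the mean over probe sets, and 0 to 1 with single arrays left out. Class I loading genes called towards lung were 1 with the replicate block, 0 at equal endothelial means, 4 with array weights, 1 with the mean over probe sets, 1 without both arrays numbered 72 or 18, 0 without both numbered 19, 0 without cortex 72 and 18, 0 without the arrays numbered 19 and 18, and 1 to 3 with single arrays left out. Other class I genes called towards lung were 0 at equal endothelial means, 1 without dim genes, 1 without both arrays numbered 72 or 22, 1 without cortex 72 and 18, 0 without the arrays numbered 19 and 18, and 2 to 3 with single arrays left out. Calls over all genes changed as well. Towards lung they were 1403 in the main analysis, 157 at equal endothelial means and 2233 with array weights. They were 675, 905, 792 and 929 without both arrays numbered 72, 22, 19 or 18. Without cortex 72 and 18 they were 632, and without the arrays numbered 19 and 18 they were 197. Towards cortex they were 1888 in the main analysis, 4122 at equal endothelial means, 2204 with array weights and 458 without the arrays numbered 19 and 18. The causes were not tested.

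Same-numbered arrays of the tissues deviated together in part (correlations over genes of 0.33, -0.16, 0.01 and 0.31 for 72, 22, 19 and 18), and not every array correlated best with its own number. With the replicate block 1801 genes were called towards cortex and 1342 towards lung, against 1888 and 1403 without it, and Ifitm1 passed (adjusted p = 0.0432).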
